A study of Mus musculus with 2 samples.

Results

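The cell cycle genes are a named set of 49 genes that drive, carry out or restrain cell division, and they were followed by gene symbol in whole-kidney RNA of injured mice. Of the 49 genes, 48 had a row among the 19829 genes of the deposited table, and *Ccne1* was not analysed here. The members were sorted by role into G1 cyclins and kinases, inhibitors with pocket proteins and E2F factors, DNA replication genes, mitotic cyclins with regulators of CDK1, and genes of the mitotic apparatus.

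Sequencing of mRNA covered 1 library per group, each made from whole kidney after acute kidney injury (AKI), and the sources do not state whether a library holds 1 mouse or a pool. The WT+AKI library came from control, wild-type (WT) mice. The TG+AKI library came from *Inmt* transgenic (TG) mice, in which the methyltransferase gene *Inmt* is overexpressed in proximal tubules, so other kidney cells are not the target of the transgene. Per the methods, controls were littermates, and the purchased mice were C57BL/6J. The background of the transgenic line is not given in the sources used here. Both groups received voclosporin, a calcineurin inhibitor, at 30 mg/kg per day by intraperitoneal injection from 8 to 10 weeks of age, and bilateral renal ischemia of 30 min at 14 weeks. Another passage of the study gives 6 weeks of voclosporin. The methods place sacrifice at 48 h after injury and a legend places it at 24 h. The treatment field of both samples reads no treatment although the series design names voclosporin, and the title of the transgenic sample also calls it a conditional knockout. *Inmt*, which checks the label, had 443 reads (10.4) in WT+AKI against 13339 reads (402.8) in TG+AKI, a ratio of 38.5 [35.1 to 42.5].

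The libraries held 38542764 and 36427421 reads, and the members took 38376 (0.0996%) and 23066 (0.0633%) of these. Values are normalized read counts on the authors' scale, on which 1 read of the WT+AKI library is worth 0.0236 and 1 read of the TG+AKI library 0.0302. Where a pair of values is given, WT+AKI comes first. A ratio is always TG+AKI over WT+AKI, and brackets give its 95% exact (Clopper-Pearson) interval from the reads of both libraries. They cover counting error only and leave out differences between mice and between libraries. PCR copies could not be told from separate molecules, so the intervals may be too narrow even for counting error. With 1 library per group no difference has a replicate check, no test of the genotypes could be made, and members are genes and not replicates. A gene was compared if the mean of its 2 values was at least 1, which 14543 genes and 45 members met, and was called at a ratio of at most 0.5 (lower) or at least 2 (higher).

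Entry into the cell cycle is governed by D-type cyclins with CDK4 or CDK6 and by E-type cyclins with CDK2, which phosphorylate the retinoblastoma family and free E2F factors to switch on the genes of DNA synthesis. CDK inhibitors oppose these kinases. Mitotic genes follow later under the DREAM and MuvB complexes, B-MYB and FOXM1, and many carry a CHR element and CCAAT boxes in their promoters. Tubule cells of an adult kidney divide rarely, and surviving tubule cells are known to re-enter the cycle after ischemia.

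The promoters show what the members share in sequence beyond their names. RefSeq promoter sequences of build GRCm38.p6, from 250 bases before to 50 bases after each start, were matched for 38 of the 48 members. They were searched on both strands for E2F words (TTTGGCGC, TTTCCCGC, TTTCGCGC or TTTGCCGC), for CHR words (TTTGAA or TTTAAA) and for the CCAAT box (CCAAT). The following upstream stretches were chosen because they show mitotic promoters of members called lower beside replication and CKS pairs whose ratios differed. They do not stand for all members. *Cdk1*, *Ccnb2* and *Mcm2*, not called, also held CHR words and CCAAT boxes, and *Mcm3* and *Cdk6*, called lower, held no CHR word. Capitals mark the words found, and neighbouring words can overlap. *Mki67*, *Ccnb1* and *Kif11*, all called lower, carried CHR words and CCAAT boxes at chr7:135716464-135716575 (minus strand), chr13:100786515-100786593 (minus strand) and chr19:37376329-37376376 (plus strand).
Mki67: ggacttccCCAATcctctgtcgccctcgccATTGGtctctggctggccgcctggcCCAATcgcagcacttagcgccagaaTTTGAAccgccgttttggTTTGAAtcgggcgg
Ccnb1: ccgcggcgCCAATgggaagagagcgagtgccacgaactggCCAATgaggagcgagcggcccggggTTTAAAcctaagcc
Kif11: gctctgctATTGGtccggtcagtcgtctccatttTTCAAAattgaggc

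The helicase genes *Mcm5*, called lower, and *Mcm6*, not called, both held E2F words and CCAAT boxes, and the stretch of *Mcm5* held a CHR word as well. They lie at chr8:75109280-75109499 (plus strand) and chr1:128359707-128359823 (minus strand).
Mcm5: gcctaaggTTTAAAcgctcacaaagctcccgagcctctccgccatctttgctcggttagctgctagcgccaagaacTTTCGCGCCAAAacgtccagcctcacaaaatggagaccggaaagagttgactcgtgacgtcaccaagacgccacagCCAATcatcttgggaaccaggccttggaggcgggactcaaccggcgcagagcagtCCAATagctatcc
Mcm6: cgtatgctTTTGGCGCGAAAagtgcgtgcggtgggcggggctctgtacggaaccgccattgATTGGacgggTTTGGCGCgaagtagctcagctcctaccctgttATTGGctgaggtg

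The small CDK-binding proteins *Cks1b* (called lower) and *Cks2* (not called) both carried CCAAT boxes at chr3:89418295-89418516 (minus strand) and chr13:51645159-51645222 (plus strand). The *Cks1b* stretch also held CHR words.
Cks1b: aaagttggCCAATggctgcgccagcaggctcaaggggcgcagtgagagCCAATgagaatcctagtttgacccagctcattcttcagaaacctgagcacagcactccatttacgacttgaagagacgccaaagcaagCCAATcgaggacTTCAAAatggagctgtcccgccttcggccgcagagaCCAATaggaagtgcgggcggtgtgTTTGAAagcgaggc
Cks2: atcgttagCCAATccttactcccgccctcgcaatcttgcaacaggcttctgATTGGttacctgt

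Among the 38 members with a promoter sequence, 31 (81.6%) held a CCAAT box, against 41.1% of all 27025 genes with a sequence and 42.6% of the 11116 genes that also met the filter. A CHR word was found in 21 members (55.3%), against 30.6% of all genes and 22.9% of the genes that met the filter. An E2F word was found in 9 members (23.7%), against 2.61% and 4.32%. By role, E2F words were in 1 of 4 promoters of G1 cyclins and kinases, 2 of 5 of inhibitors, pocket proteins and E2F, 5 of 10 of replication genes, 1 of 6 of mitotic cyclins and CDK1 regulators, and 0 of 13 of the mitotic apparatus. In the same order, CHR words were in 0 of 4, 2 of 5, 4 of 10, 4 of 6 and 11 of 13. Of the 12 called members with a sequence, 10 (83.3%) held a CHR word and 3 an E2F word, and of the 24 compared members without a call 10 (41.7%) held a CHR word and 6 an E2F word. Role and call overlap in these counts. In the mitotic apparatus, *Aurka*, *Cdc20*, *Cenpa*, *Cenpe* and *Ect2*, not called, held a CHR word, as did all called members with a sequence. *Mad2l1*, also not called, held none. The CHR share among all genes called lower was not examined. A match is a description of letters and not of a bound site.

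Across the set, 15 of the 45 compared members were at least 2-fold lower in TG+AKI and 0 were at least 2-fold higher. Over all 14543 genes compared, 10.1% were lower and 6.70% higher. The median log2 ratio was -0.69 over the members (a ratio of 0.620) and -0.01 over all genes, and 41 of 45 members had a ratio below 1 against 51.1% of all genes. The interval lay below 1 for 34 members, above 1 for *Cdkn1b* and *Cks2*, and held 1 for 9. In whole-kidney RNA, fewer cells of a type and less of an RNA per cell cannot be told apart.

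The called members were mostly of low abundance. Of the 28 members with a mean value from 1 to 10, 14 were lower, against 17.3% of all genes in that range, and 0 were higher, against 8.83%. The filter uses the mean of both libraries, so a low gene can pass it through the library where it is higher. Among the called members, *Ccne2*, *Ccnb1*, *Bub1b*, *Birc5*, *Kif11* and *Tpx2* were under 1 in TG+AKI and passed through their WT+AKI value. Their calls therefore depend on the filter, which was the same for all genes. Of the 17 members with a mean of at least 10, 1 (*Cdk6*) was lower, a share of 5.88% beside 6.72% of all genes, and 0 were higher, against 5.69%. The count among abundant members was thus near the background, whereas their median log2 ratio was -0.32 beside 0.02 for all genes of that abundance. In the lower range the medians were -1.01 for the members and -0.15 for all genes. The called members nearest the threshold were *Mcm3* (0.443), *Mcm4* (0.452) and *Cdk6* (0.460), and those just outside it were *Mcm2* (0.542), *Ccnb2* (0.543) and *Aurka* (0.543).

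**Figure D1:**
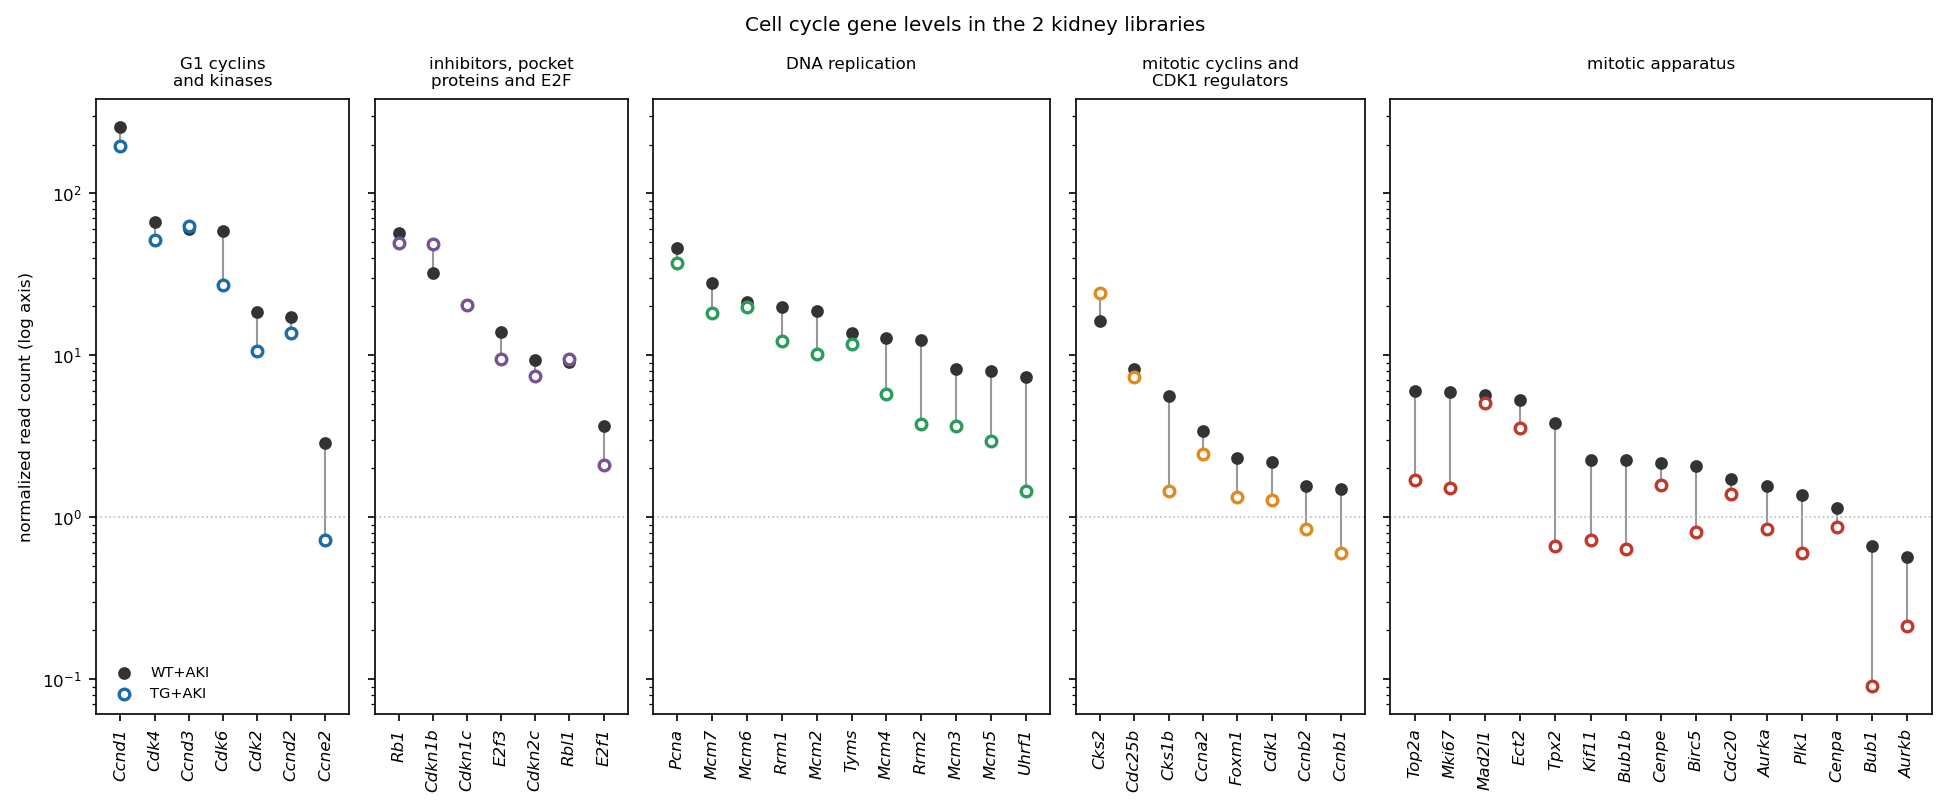
Normalized read counts (log axis) of the 48 cell cycle genes with a row, by role, in WT+AKI (filled) and TG+AKI (open), 1 library each, with a dotted line at 1. The open points lie furthest below the filled ones for low genes such as *Uhrf1* (7.29 and 1.45), *Tpx2* (3.82 and 0.664) and *Bub1* (0.660 and 0.0906).

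Of the G1 cyclins and kinases, 2 of 7 genes with a row, *Cdk6* and *Ccne2*, were lower by at least 2-fold. *Ccnd1*, the D-type cyclin induced by growth signals, was at 257.1 (10900 reads) and 196.5 (6507 reads), a ratio of 0.764 [0.741 to 0.788]. Per kilobase of the longest coding transcript it was the highest of the members in both libraries, at 68.7 and 52.5. *Ccnd2* was at 17.1 and 13.8 (ratio 0.807 [0.716 to 0.909]). *Ccnd3* was at 59.8 and 62.5, and its ratio of 1.04 [0.985 to 1.11] was below 1 with equal library totals (0.864) and with the median ratio set to 1 (0.945). On the same scale *Ccnd1* made up 68.9% of the D-type cyclin level in WT+AKI and 62.3% in TG+AKI, *Ccnd3* made up 28.4% and 35.1%, and *Ccnd2* made up 2.71% and 2.59%.

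The kinase partners of the D-type cyclins differed from each other. *Cdk4* was at 66.1 (2804 reads) and 51.7 (1712 reads), a ratio of 0.782 [0.736 to 0.830]. *Cdk6* was at 58.6 (2485 reads) and 27.0 (893 reads), a ratio of 0.460 [0.426 to 0.497], and it was the only called member with a mean above 10. Per kilobase, *Cdk4* stood above *Cdk6* in both libraries, at 32.2 and 5.09 in WT+AKI and at 25.2 and 2.34 in TG+AKI. *Ccne2*, the E-type cyclin with a row, was at 2.85 (121 reads) and 0.725 (24 reads), a ratio of 0.254 [0.157 to 0.396]. Its kinase partner *Cdk2* was at 18.4 and 10.7 (0.582 [0.512 to 0.660]), lower but above the threshold. The summed level of the 7 genes was 480.0 and 362.8, a ratio of 0.756 [0.739 to 0.773].

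Inhibitors, pocket proteins and E2F factors formed the role group with the median nearest to that of all genes, and 0 of the 7 were called in either direction. *Cdkn1b*, which encodes the CDK inhibitor p27, was at 32.0 (1356 reads) and 48.8 (1615 reads), a ratio of 1.52 [1.42 to 1.64] and with *Cks2* the highest of the members. *Cdkn1c*, which encodes p57 and marks podocytes in the adult kidney, was at 20.4 and 20.3, with a ratio of 0.996 [0.899 to 1.10] that became 1.01 with DESeq2 size factors. The INK4 inhibitor gene *Cdkn2c* was at 9.29 and 7.46 (0.803 [0.682 to 0.943]).

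The retinoblastoma gene *Rb1* was at 56.8 and 49.5 (0.871 [0.818 to 0.928]). Its relative *Rbl1*, which encodes p107, was at 9.08 and 9.45, with a ratio of 1.04 [0.894 to 1.21] that was 0.860 with equal library totals and 0.942 with the median ratio set to 1. Both E2F activator genes of the set were lower without reaching the threshold. *E2f1* was at 3.68 (156 reads) and 2.11 (70 reads), a ratio of 0.574 [0.427 to 0.766], and *E2f3* was at 13.9 and 9.45 (0.679 [0.590 to 0.780]). The group's median log2 ratio was -0.20, and its summed level was 145.2 and 147.1, a ratio of 1.01 [0.975 to 1.05]. Per kilobase, *Rb1* (12.2), *Cdkn1c* (10.7) and *Cdkn1b* (7.03) led the group in WT+AKI, and in TG+AKI they lay together at 10.6, 10.7 and 10.7.

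All 11 DNA replication genes had a ratio below 1, and 5 were called lower: *Uhrf1*, *Rrm2*, *Mcm5*, *Mcm3* and *Mcm4*. *Uhrf1*, which brings maintenance DNA methylation to replicated DNA, had the lowest ratio of the group, at 7.29 (309 reads) and 1.45 (48 reads), a ratio of 0.199 [0.144 to 0.270]. *Rrm2*, the S phase subunit of ribonucleotide reductase, was at 12.4 (524 reads) and 3.74 (124 reads), a ratio of 0.303 [0.247 to 0.369]. Its catalytic partner *Rrm1* was at 19.9 and 12.3 (0.620 [0.549 to 0.698]). The intervals of the 2 reductase subunits did not overlap. *Tyms*, which makes thymidylate, was at 13.7 and 11.7 (0.856 [0.750 to 0.975]).

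The 6 MCM genes encode the ring-shaped replicative helicase, whose subunits are assembled in equal numbers. *Mcm5* was at 7.97 (338 reads) and 2.96 (98 reads), a ratio of 0.371 [0.293 to 0.466]. *Mcm3* was at 8.26 (350 reads) and 3.65 (121 reads), a ratio of 0.443 [0.357 to 0.546]. *Mcm4* was at 12.7 (538 reads) and 5.74 (190 reads), a ratio of 0.452 [0.381 to 0.534]. These 3 subunits were called, and the other 3 were not. *Mcm2* was at 18.7 and 10.1 (0.542 [0.475 to 0.616]). *Mcm7*, whose exons overlap a gene on the opposite strand, was at 28.1 and 18.2 (0.648 [0.586 to 0.715]). *Mcm6* was at 21.4 (908 reads) and 20.0 (661 reads), a ratio of 0.932 [0.842 to 1.03]. The interval of *Mcm6* lay above those of the 5 other subunits. Per kilobase, the highest subunit was 4.02 times the lowest in WT+AKI and 7.01 times in TG+AKI, with *Mcm7* highest and *Mcm5* lowest in both.

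*Pcna*, the sliding clamp of the replication fork, led the group per kilobase at 30.4 and 24.4. Its values were 46.2 (1957 reads) and 37.0 (1225 reads), with a ratio of 0.801 [0.745 to 0.861]. It shares 17.8% of its 100-base words with a pseudogene, so reads of the 2 could be split. The 11 genes together were at 196.5 and 126.8, a ratio of 0.645 [0.622 to 0.670], with a median log2 ratio of -0.88.

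**Figure D2:**
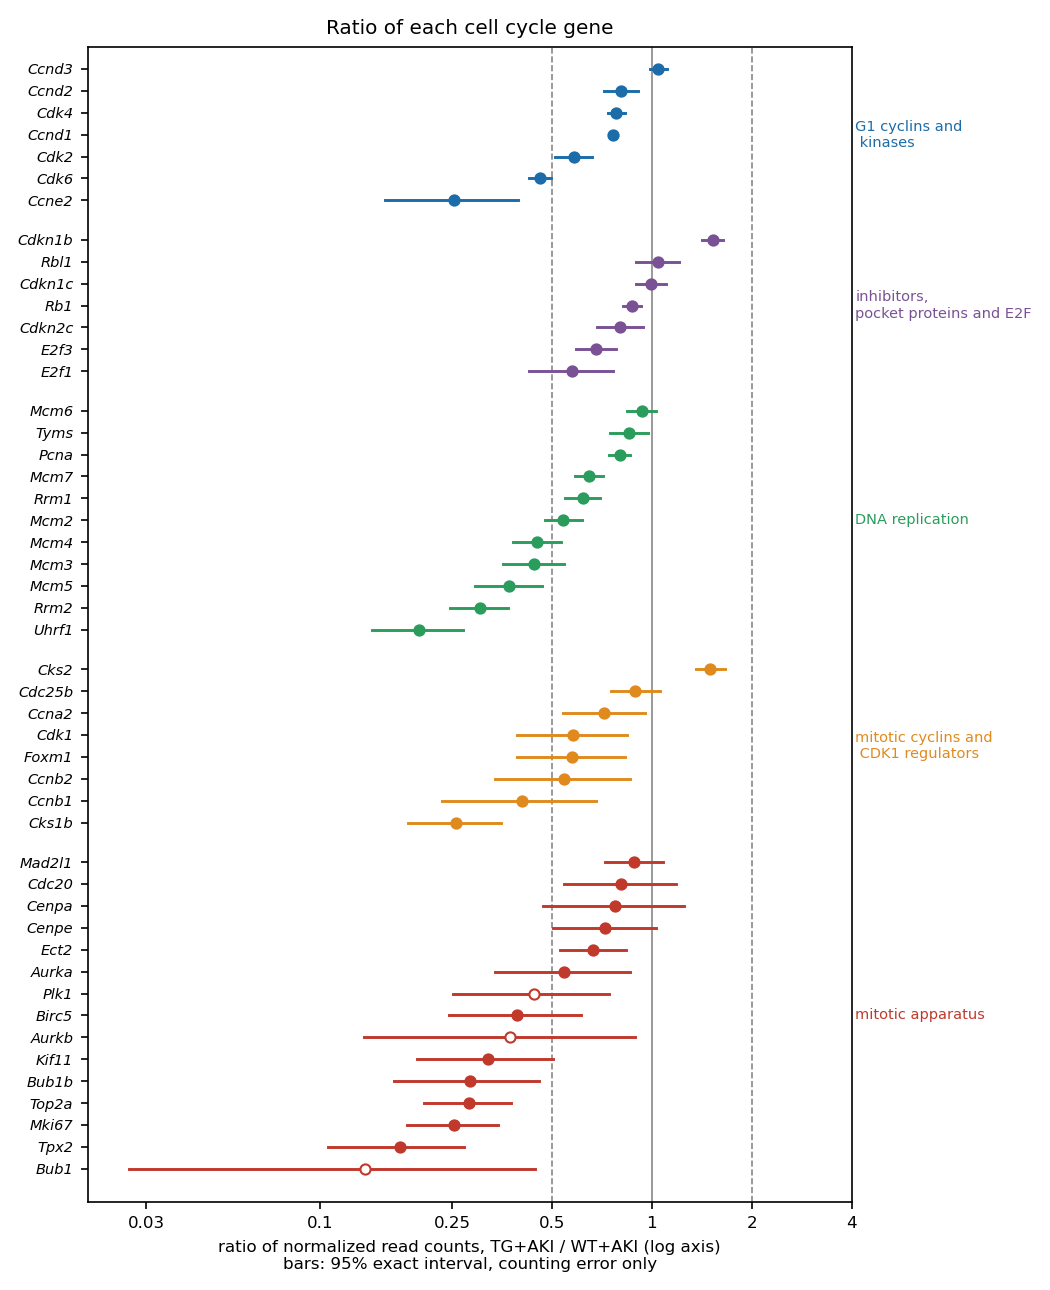
Ratio of TG+AKI to WT+AKI (log axis) for the 48 cell cycle genes with a row, grouped by role, with 95% exact intervals for counting error, dashed lines at 0.5 and 2, and open points for the 3 genes under the filter. No point lies to the right of the line at 2, and the lowest of the compared members is *Tpx2* at 0.174.

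The mitotic cyclins and regulators of CDK1 held 2 called genes among 8, *Cks1b* and *Ccnb1*. *Cdk1*, the mitotic kinase, was at 2.19 (93 reads) and 1.27 (42 reads), a ratio of 0.578 [0.392 to 0.841]. Of its cyclin partners in S phase and mitosis, *Ccnb1* was called and *Ccna2* and *Ccnb2* were not. *Ccna2* was at 3.40 and 2.45 (0.720 [0.542 to 0.952]). *Ccnb1* was at 1.49 (63 reads) and 0.604 (20 reads), a ratio of 0.406 [0.233 to 0.681], and it shares 28.6% of its 100-base words with pseudogenes. *Ccnb2* was at 1.56 and 0.846 (0.543 [0.336 to 0.857]). The intervals of *Cdk1* and the 3 cyclins overlapped. *Foxm1*, a transcription factor of G2 and mitosis, was at 2.31 and 1.33 (0.575 [0.393 to 0.828]).

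The CDK-binding proteins diverged. *Cks1b*, which also serves in the ubiquitin-dependent removal of p27, was at 5.64 (239 reads) and 1.45 (48 reads), a ratio of 0.257 [0.185 to 0.352]. *Cks2* was at 16.2 (687 reads) and 24.3 (806 reads), a ratio of 1.5 [1.36 to 1.67]. It shares 23.8% of its 100-base words with pseudogenes, and its reads are therefore uncertain. Per kilobase *Cks2* led the group in both libraries, at 23.4 and 35.2, while *Cks1b* was at 6.64 and 1.71. *Cdc25b*, a phosphatase that activates CDK1, was at 8.18 and 7.31 (0.893 [0.755 to 1.06]), and per kilobase at 2.65 and 2.37. The group's median log2 ratio was -0.79, but its summed level was 41.0 and 39.6, a ratio of 0.966 [0.899 to 1.04], since *Cks2* alone made up the largest part of the sum.

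The genes of the mitotic apparatus had the lowest median log2 ratio of the 5 role groups, -1.11. All 12 compared genes had a ratio below 1, and 6 were called lower. *Tpx2*, which promotes spindle assembly and activates Aurora A, was at 3.82 (162 reads) and 0.664 (22 reads), a ratio of 0.174 [0.106 to 0.272]. *Mki67*, the proliferation antigen that coats mitotic chromosomes, was at 5.97 (253 reads) and 1.51 (50 reads), a ratio of 0.253 [0.183 to 0.344]. *Top2a*, which untangles sister DNA, was at 6.01 (255 reads) and 1.69 (56 reads), a ratio of 0.281 [0.207 to 0.377]. Among the called genes of this group, these had the most reads in WT+AKI. In TG+AKI, however, *Tpx2* (22 reads) was below *Birc5* (27 reads) and *Kif11* (24 reads).

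*Bub1b*, a checkpoint kinase gene that encodes BUBR1, was at 2.24 (95 reads) and 0.634 (21 reads), a ratio of 0.283 [0.167 to 0.458]. *Kif11*, the motor that separates spindle poles, was at 2.26 (96 reads) and 0.725 (24 reads), a ratio of 0.320 [0.196 to 0.505]. *Birc5*, which encodes survivin of the chromosomal passenger complex, was at 2.08 (88 reads) and 0.815 (27 reads), a ratio of 0.393 [0.245 to 0.611]. At this depth the upper limits of *Kif11* and *Birc5* passed 0.5.

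Another 6 compared genes of the mitotic apparatus were not called. *Ect2*, which positions the cleavage furrow, was at 5.31 and 3.53 (0.666 [0.528 to 0.836]). *Aurka*, the spindle pole kinase, was at 1.56 (66 reads) and 0.846 (28 reads), a ratio of 0.543 [0.336 to 0.857]. *Mad2l1*, a spindle checkpoint gene, was at 5.71 and 5.04 (0.883 [0.721 to 1.08]). *Cdc20*, an activator of the anaphase-promoting complex, was at 1.72 and 1.39 (0.807 [0.545 to 1.18]). For the centromere genes *Cenpa* (0.773 [0.470 to 1.25]) and *Cenpe* (0.724 [0.505 to 1.03]), as for *Mad2l1* and *Cdc20*, the interval held 1, so a difference was not detectable at this depth. Per kilobase, *Ect2* was highest of the group in both libraries (1.30 and 0.865). *Top2a* (1.15) and *Cdc20* (0.960) came next in WT+AKI, whereas in TG+AKI *Cdc20* (0.775) came next and *Top2a* was at 0.324, below *Mad2l1* (0.667).

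The 3 members under the filter were also mitotic. *Bub1*, a checkpoint kinase gene, was at 0.660 (28 reads) and 0.0906, which is 3 reads, the floor used here, and its ratio was 0.137 [0.0267 to 0.444]. *Aurkb*, the kinase of the chromosomal passenger complex, was at 0.566 (24 reads) and 0.211 (7 reads), a ratio of 0.373 [0.136 to 0.893]. *Plk1*, the Polo-like kinase of mitotic entry, was at 1.37 (58 reads) and 0.604 (20 reads), a ratio of 0.441 [0.251 to 0.745]. They are in no count of calls. The summed level of all 15 genes was 42.6 and 20.2, a ratio of 0.474 [0.434 to 0.519].

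**Figure D3:**
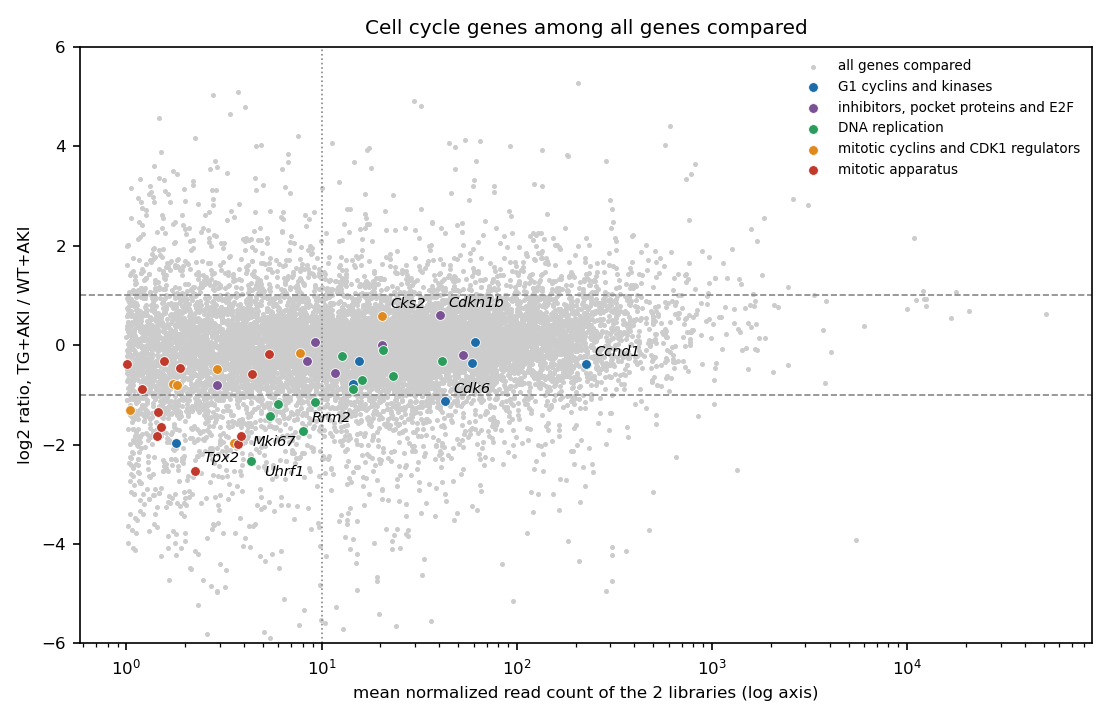
Log2 ratio of TG+AKI to WT+AKI against the mean normalized read count (log axis) for the 14543 genes compared (grey) and the 45 compared cell cycle genes (coloured by role), with dashed lines at 2-fold and a dotted line at a mean of 10. Coloured points below the lower dashed line lie left of the dotted line except *Cdk6*, and 23 grey points lie outside the axis at 6 on the log2 scale.

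Reads could be shared with other genes for some members. Over 10% of the 100-base words of *Pcna*, *Ccnb1* and *Cks2* occur in another gene, and 37 members share none. The exons of 14 members overlap an exon on the opposite strand. In 7 of these, more than 10% of the exon bases overlap other genes on either strand: *Ccnd1*, *Cdk4*, *Ccne2*, *Cdkn1c*, *Rb1*, *Mcm7* and *Ccna2*. The share of *Mcm7* includes *Mir25* and *Mir93* on its own strand. The library kit keeps strand, but the sources used here do not state whether the counting used it.

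Cell cycle genes outside the set were examined by list, beside the background of 10.1% of all compared genes lower and 6.70% higher. Of the 42 other S phase genes, 39 had a row and 32 were compared, of which 7 were lower and 1 higher, with a median log2 ratio of -0.45. The 7 lower genes all had a mean value under 10, and 17.3% of all genes with a mean of 1 to 10 were lower. Only part of the 32 compared genes lay in that range, so 7 of 32 is not matched to that share. *Cdca7*, a MYC- and E2F-responsive gene, was at 2.78 (118 reads) and 0.483 (16 reads), a ratio of 0.174 [0.0961 to 0.294]. The chromatin assembly gene *Chaf1b* was at 4.55 and 0.936 (0.206 [0.136 to 0.302]).

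Of the 48 other G2/M genes, 44 had a row and 34 were compared, of which 15 were lower and 0 higher, with a median log2 ratio of -0.56. Of the 15 lower genes, 4 had a mean of at least 10. The 3 with the largest difference include known targets of p53. *Psrc1*, a microtubule regulator and p53 target, was at 28.9 (1227 reads) and 1.57 (52 reads), a ratio of 0.0543 [0.0403 to 0.0716]. *Gtse1*, likewise induced by p53, was at 26.4 (1119 reads) and 1.54 (51 reads), a ratio of 0.0583 [0.0432 to 0.0773]. *Ckap2* was at 12.1 (513 reads) and 1.30 (43 reads), a ratio of 0.107 [0.0767 to 0.147].

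The list of other inhibitors and checkpoint genes had the lowest median log2 ratio of the 4 additional lists, -1.05, with 11 of 19 compared genes lower and 0 higher. *Cdkn1a*, which encodes the CDK inhibitor p21, was at 581.1 (24638 reads) and 31.2 (1032 reads), a ratio of 0.0536 [0.0503 to 0.0571]. *Cdkn1a* and *Cdkn1b* are of the same inhibitor family and lay on opposite sides of 1. *Sfn*, a 14-3-3 protein gene of the G2 checkpoint, was at 51.6 and 3.93 (0.0760 [0.0632 to 0.0908]). *Gadd45b*, a stress-induced gene, was at 18.1 and 3.83 (0.212 [0.174 to 0.256]).

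Of the 15 other E2F and DREAM genes, 14 were compared, 1 was lower and 0 were higher, with a median log2 ratio of 0.01 that turned negative with another scaling. The lower gene was *Myc*, an activator of growth genes, at 36.0 (1526 reads) and 4.86 (161 reads), a ratio of 0.135 [0.114 to 0.159]. *Tfdp2*, an E2F partner, was at 33.9 and 58.0 (1.71 [1.6 to 1.83]). *Rbl2*, which encodes the p130 subunit of DREAM, was at 61.8 and 102.8 (1.66 [1.58 to 1.75]).

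**Figure D4:**
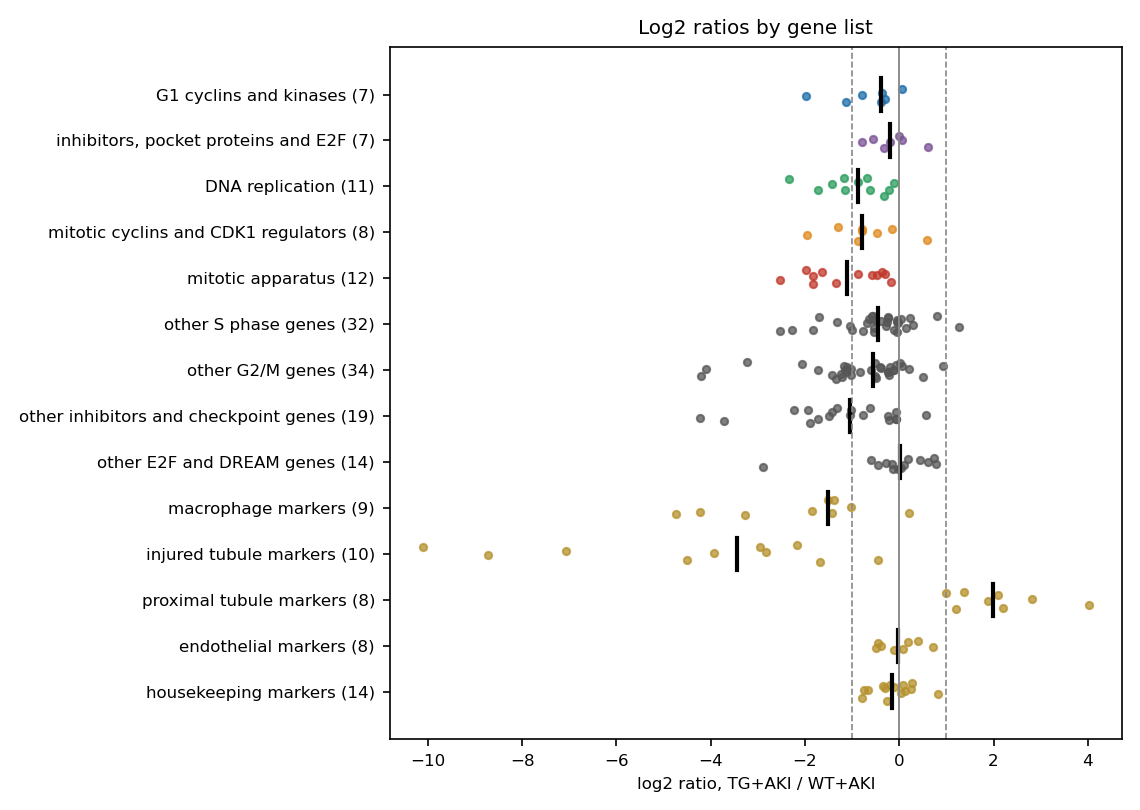
Log2 ratios of TG+AKI to WT+AKI for the compared genes of each role group, of 4 further cell cycle lists and of 5 marker lists, with the number of genes in brackets, a bar at each median and dashed lines at 2-fold. The bar of the mitotic apparatus lies at -1.11 and that of inhibitors, pocket proteins and E2F at -0.20, between injured tubule markers on the left and proximal tubule markers on the right.

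Markers of cell types differed between the same libraries, and their part in these ratios was not tested. All 8 proximal tubule markers were higher in TG+AKI (summed level 4609 and 16544), led by *Gatm* (66.3 and 1075). Of 10 injured tubule markers 9 were lower (summed level 13302 and 909.4), led by *Krt20* (399.2 and 0.362), *Havcr1* (1169 and 2.78) and *Lcn2* (249.8 and 1.87). Of 9 compared macrophage markers 8 were lower (summed level of 10 genes 218.6 and 84.1), led by *Cd68* (37.1 and 1.39), *Itgam* (19.9 and 1.06) and *Cd14* (25.2 and 2.60), and *Csf1r* was not called. Both compared neutrophil markers were lower (summed level of 3 genes 7.38 and 1.42). Of 8 fibroblast and mural markers 4 were lower (593.7 and 308.3). The 8 endothelial markers (563.3 and 529.8), the 6 podocyte markers (435.8 and 465.0) and the 14 housekeeping genes (5668 and 5469) held 0 calls. The summed level of 9 T and B cell markers was 16.4 and 11.1, and the only one compared, *Ptprc*, was not called. Thick ascending limb and distal tubule markers held 4 higher genes of 6 (1994 and 3628), collecting duct markers 1 of 6 (338.4 and 486.2), and erythroid markers 1 of 2 compared (1.84 and 3.59). Every gene of the deposited table had at least 1 read in both libraries, so having a row is no separate sign of a cell type. A marker without reads in either library could have no row. Of the 8 listed neutrophil markers 5 had no row, as had 1 of 10 T and B cell markers and 1 of 4 erythroid markers.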

How the data were processed

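Poly(A) RNA libraries (TruSeq Stranded mRNA) were made from 1 kidney sample per group. The submitters' processing notes name STAR 2.7.3a, HTSeq, DESeq2, Cufflinks 2.2.1, edgeR and build mm10, and the study's methods name DESeq2 for normalization. The authors deposited 1 normalized signal value per gene and library. Division by the column minimum gave whole numbers (100% of values within 0.001), taken as reads, and the scaling matched edgeR TMM factors, not DESeq2 size factors.

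Ratios were taken of the deposited values without a pseudocount, with 95% exact intervals from the reads, at a mean value of at least 1 (42.4 reads in WT+AKI, 33.1 in TG+AKI). No test of the genotypes was made, because each group had 1 library. The members and lists were chosen with earlier results of these data known. Named genes are all members, the 3 largest log2 ratios of each other list, at most 3 markers a list, and *Inmt*, with values of 2 listed genes not reported here. Macrophage, T and B cell, neutrophil, endothelial, fibroblast and mural, tubule, collecting duct, podocyte, erythroid and housekeeping markers were summed per library. Lengths, overlaps and shared words came from GENCODE, using the longest coding transcript, and promoters from RefSeq. The procedure was run on simulated data in which 200 genes were changed 4-fold and only counting error was present. That simulation holds no differences between mice or libraries, so it is no check on the calls. Alternatives were pseudocounts of 0.1 and 1, no filter or a filter of 10, equal library totals, the median ratio set to 1 (genes of 100 or more in both libraries), DESeq2 size factors, TMM, a ratio of 1.5, and an interval that excludes 1. Python 3.11.15 (pandas 2.3.3, scipy 1.17.1), R 4.3.3, edgeR 4.0.16 and DESeq2 1.42.0 were used.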

Additional observations from a re-analysis of the deposited data

How the results depend on the processing

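With 1 library per group no replicate could be left out, and no paired analysis was possible because each group had 1 library. Between the scalings the log2 ratio of every gene moved by a constant, -0.27 with equal library totals, -0.14 with a median ratio of 1 and 0.02 with DESeq2 size factors. The same 15 members were lower under all of these scalings, which followed from the shifts and is no separate check. The negative shifts lower every ratio, and a shift of 0.02 could not lift the nearest called member, *Cdk6* (log2 ratio -1.12), past the threshold. With equal library totals 8 more members joined (23 of 46 compared, including *Plk1*, *Mcm2* and *Cdk1*). The share of all genes called lower then rose as well, from 10.1% as deposited to 15.0%. Of all called genes 39.8% were higher as deposited, 22.2% with equal library totals (624 higher) and 29.9% with a median ratio of 1. The median log2 ratio with equal library totals was -1.01 over the members, -0.80 over the other S phase genes (0 higher), -0.88 over the other G2/M genes and -0.27 over the E2F and DREAM genes. With a median ratio of 1 it was -0.66, -0.75 and -0.14 for the last 3 lists. A pseudocount of 1 left 10 of the 15 members, 4 other S phase genes and 8 other G2/M genes lower, beside 7.67% of all genes. Adding 1 to both values moves every ratio toward 1, most where values are low, and it took the calls of *Birc5*, *Bub1b*, *Ccnb1*, *Kif11* and *Mcm3*. A filter of 10 left 1 member, 0 other S phase genes (median -0.079) and 4 other G2/M genes lower, with 662 genes lower and 561 higher in all. Without a filter 2489 genes were lower and 1821 higher, the median of the other G2/M genes was -0.85, and the E2F and DREAM genes had 2 lower and a median of -0.032. At a ratio of 1.5, 2705 genes were lower (18.6% of those compared) and 2184 higher. The lower genes then numbered 25 members, 11 other S phase genes and 2 E2F and DREAM genes, and the higher ones 2 members (*Cdkn1b* and *Cks2*), 2 other S phase genes, 1 other G2/M gene and 3 E2F and DREAM genes. Requiring an interval that excludes 1 removed no call of any gene (1475 lower and 975 higher), so it was no check on the members. Depth limits the called members with few reads in TG+AKI, such as *Ccnb1* (20), *Bub1b* (21), *Tpx2* (22), *Ccne2* (24) and *Kif11* (24).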

Other observations

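Ratios between members within a library do not depend on the scaling, and several pairs of related genes, chosen after their values were seen, differed between the libraries. For each read of *Cks2* there were 0.348 reads of *Cks1b* in WT+AKI and 0.0596 in TG+AKI, which differ by a factor of 0.171 [0.121 to 0.239]. *Cks2* shares 23.8% of its 100-base words with pseudogenes. *Rrm2* had 0.622 reads for each read of *Rrm1* in WT+AKI against 0.304 in TG+AKI, a factor of 0.489 [0.386 to 0.618]. *Mcm5* had 0.372 and 0.148 reads for each read of *Mcm6*, a factor of 0.398 [0.308 to 0.512], although both encode subunits of the same helicase. *Uhrf1* had 0.158 and 0.0392 reads for each read of *Pcna*, a factor of 0.248 [0.178 to 0.340].

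The checkpoint genes *Mad2l1* and *Bub1b* parted by a factor of 3.12 [1.84 to 5.48], from 2.55 to 7.95 reads of *Mad2l1* for each read of *Bub1b*. *Cdkn1b* had 0.124 reads for each read of *Ccnd1* in WT+AKI against 0.248 in TG+AKI, a factor of 2.0 [1.84 to 2.16]. For *Ccnd2* against *Ccnd1* the factor was 1.06 [0.933 to 1.19], and for *Ccnb1* against *Ccnb2* it was 0.748 [0.360 to 1.54], so that a change was not detectable in these 2 pairs.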
